A study of Daphnia magna with 15 samples.

Results

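Of the 15 bisulfite libraries made from genomic DNA of adult female Daphnia magna, a freshwater water flea used in aquatic toxicology, 6 are compared here. The first trio holds the salinity libraries with the lowest title numbers, 11.S2, 25.S11 and 27.S18, and the last trio those with the highest, 52.S5, 54.S14 and 55.S21. Both trios carry the salinity label, for which founder cultures were kept at 4.1 g/L NaCl until the founders had released several broods, at 20 °C in a cycle of 16 h light and 8 h dark. Per the labels' protocols, 3 exposed and 3 unexposed cultures were founded in buckets, and later generations came from newborns raised in control medium up to generation 4. The labels give neither a generation nor a culture for any single library, so the trios are named by their titles only. The comparison shows whether libraries at both ends of the title numbers differed in methylation. It does not compare exposed with unexposed animals, and it cannot be read as a course over generations.

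In DNA methylation a methyl group is added to cytosine, and in animals it is found mostly at CpG sites, where a C is followed by a G. Many arthropods carry little of it and place it mainly within the bodies of a subset of genes, and water fleas belong to these sparsely methylated animals. Maintenance enzymes of the DNMT1 type copy the mark when DNA is replicated, which is why it is studied as a possible carrier of ancestral exposure. Daphnia females can produce genetically identical daughters without fertilisation, so animals of a culture can differ in their marks without differing in sequence.

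For each gene model, an mRNA of the annotation, a library gave a count of cytosine calls and a count of those that were methylated. The methylation level is the methylated share of the calls. In total 24871 gene models were listed by at least 1 of the 6 libraries, and 1514 by all 6. A gene model was called covered when it had at least 10 calls in each of the 6, and 901 were covered. These 901 held from 6.04% (52.S5) to 10.8% (55.S21) of a library's calls. Their median depth was 63, 91 and 55 calls in 11.S2, 25.S11 and 27.S18, and 66, 53 and 56 calls in 52.S5, 54.S14 and 55.S21. The identifiers are not paired with gene names in the sources used here, so results are given by gene model identifier and no pathway can be described. No sequence could be read for them either.

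A property of the deposited counts differed between the libraries and bears on every result that follows. Methylated counts of 1 and 2 were nearly missing, and counts began at a lowest recurring value of 3 in 11.S2, 25.S11, 27.S18 and 52.S5, and of 4 in 54.S14 and 55.S21. A count of 3 was found in 443, 301 and 286 listed gene models of the first trio and in 491 of 52.S5, but in only 1 of 54.S14 and 2 of 55.S21. The next values were also spaced differently. In 27.S18 a count of 6 was seen in 80 gene models and a count of 5 in 46, whereas in 54.S14 a count of 8 was seen in 21 gene models and counts of 6 and 7 in 6 each. A gene model at 0 may thus have had a few methylated calls that went unrecorded, possibly more in 54.S14 and 55.S21 than elsewhere. The lowest recurring count is not a strict limit. Counts of 1 and 2 were seen in 2 and 3 gene models of 54.S14, and a count of 2 in 1 of 25.S11. Both libraries with the higher lowest count are in the last trio, so trio and lowest count cannot be fully told apart. Only 52.S5 allows a comparison of the last trio with the first at the same lowest count.

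**Figure D1:**
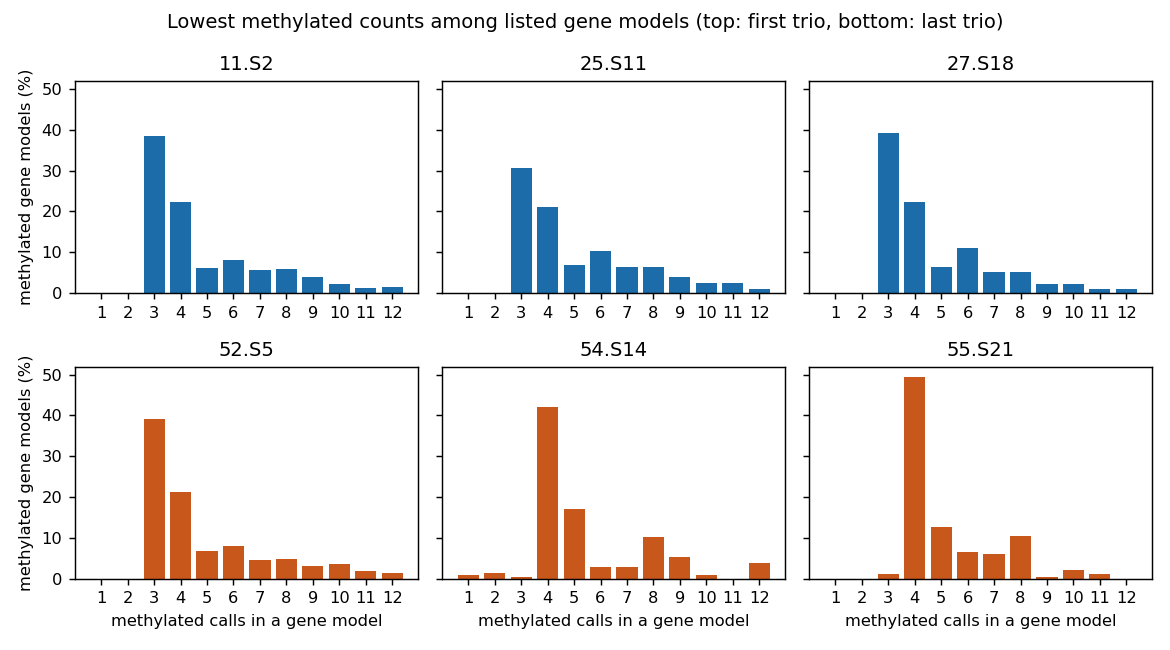
Share (%) of the methylated gene models of each library that had 1 to 12 methylated calls, over all listed gene models, with the first trio on top and the last trio below. The lowest recurring count is 3 in the first trio and 52.S5 and 4 in 54.S14 and 55.S21, where 42.0% and 49.5% of the methylated gene models had exactly 4.

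Fewer of the calls were methylated in the last trio than in the first over the same 901 gene models. The overall level, methylated calls over all calls, was 0.267% in 11.S2, 0.315% in 25.S11 and 0.241% in 27.S18, against 0.214% in 52.S5, 0.129% in 54.S14 and 0.129% in 55.S21. All 3 last libraries were below all 3 first ones, with 54.S14 and 55.S21 far apart from the other 4 libraries. The mean was 0.274% ± 0.0377 (SD, n = 3) in the first trio and 0.158% ± 0.0491 (SD, n = 3) in the last, so the last mean differed by -0.117 percentage points or -42.5% of the first. The two-sided exact permutation p was 0.1, the smallest that the 20 splits of 6 libraries into 3 and 3 allow, and 0.2 after Benjamini-Hochberg adjustment over the 6 comparisons of this kind. No difference can therefore pass 0.05 in this design. Differences from -0.186 to -0.0265 percentage points were not rejected at the 90% level.

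The counts behind these levels were small. Methylated calls over the 901 gene models numbered 335, 582 and 265 in the first trio and 299, 202 and 174 in the last. The Wilson 95% interval of 52.S5, 0.191% to 0.240%, overlapped that of 27.S18, 0.213% to 0.271%, so the gap between these neighbouring libraries was within counting error. The intervals of 54.S14 (0.113% to 0.148%) and 55.S21 (0.111% to 0.150%) reached none of the other 4. Such intervals cover counting error only, because calls from the same read or molecule are not independent.

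The S numbers in the titles fall into 3 bands, and each trio has 1 library in each (S2 and S5, S11 and S14, S18 and S21). Within the bands the last library was lower by -0.0526, -0.186 and -0.112 percentage points. What the S numbers stand for is not stated in the labels.

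Giving each gene model the same weight led to the same order of the trios. The mean level per gene model was 0.518%, 0.661% and 0.530% in 11.S2, 25.S11 and 27.S18, and 0.450%, 0.182% and 0.203% in 52.S5, 54.S14 and 55.S21. The trios did not overlap, at 0.569% ± 0.0794 and 0.278% ± 0.149 (SD, n = 3 each; two-sided exact permutation p = 0.1, adjusted 0.2). The difference was -0.291 percentage points. Leaving out a library also redrew the covered gene models, as those with enough calls in every remaining library. The trios overlapped over the 1452 covered without 25.S11 (-0.247, exact permutation p = 0.3). They also overlapped over the 1113 covered without 55.S21 (-0.225, exact permutation p = 0.4). With the gene models kept as above, the trios stayed apart without either library. They overlapped with a minimum of 5, 20 or 50 calls.

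Methylated gene models were also fewer in the last trio on average, but here the trios overlapped. Methylated calls were found in 57 gene models of 11.S2, 78 of 25.S11 and 47 of 27.S18, and in 56 of 52.S5, 21 of 54.S14 and 17 of 55.S21. Library 52.S5 thus had about as many as 11.S2 and more than 27.S18, and the low values were those of 54.S14 and 55.S21. As shares of the 901 the means were 6.73% ± 1.76 and 3.48% ± 2.38 (SD, n = 3 each; two-sided exact permutation p = 0.2, adjusted 0.24). At the 90% level, differences between -6.77 and 0.999 percentage points were not rejected. A level of 10% or more was reached by 15, 17 and 18 gene models in the first trio and by 15, 7 and 7 in the last. The shares, 1.85% ± 0.170 and 1.07% ± 0.513 (SD, n = 3 each), again touched at 52.S5, which equalled 11.S2 (exact permutation p = 0.2, adjusted 0.24). No gene model reached 50% in any of the 6 libraries.

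**Figure D2:**
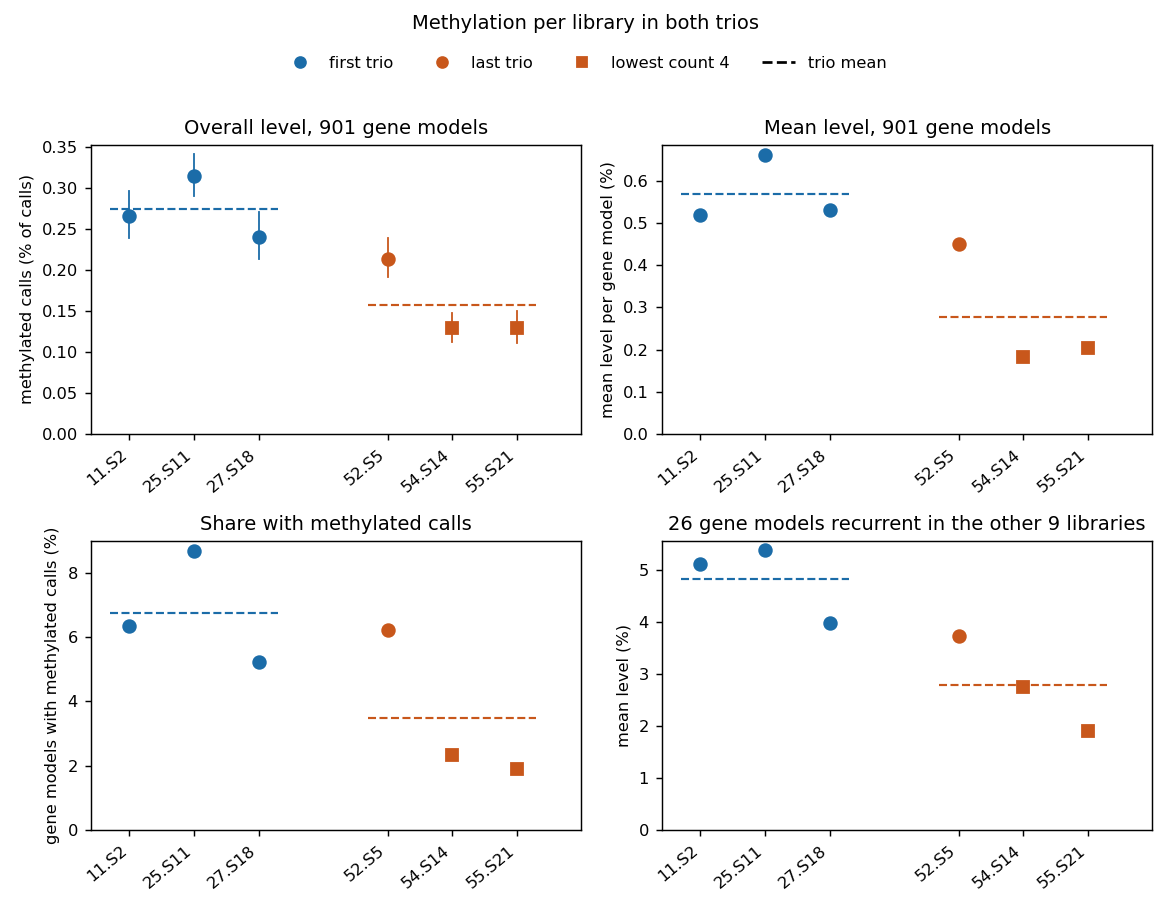
Overall level, mean level per gene model, share with any methylated call, and mean level of 26 recurrent gene models (all in %) for each library, with Wilson 95% intervals on the overall level, dashed lines for trio means and squares for libraries with a lowest count of 4. The 2 squares, 54.S14 and 55.S21, are the lowest libraries in every panel, and 52.S5 lies within the range of the first trio only in the share with any methylated call.

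Levels within methylated gene models are given as a description. The median level of a methylated gene model was 5.80%, 4.11% and 8.00% in 11.S2, 25.S11 and 27.S18. In 52.S5, 54.S14 and 55.S21 it was 5.17%, 1.92% and 6.45%. The highest level of any gene model was 40.9%, 44.7% and 46.2% in the first trio and 22.6%, 29.8% and 33.3% in the last. The medians overlapped between the trios, whereas the highest levels of the last trio were all below those of the first. In 11.S2 and 25.S11 the highest level was that of the same gene model, Dapma7bEVm029048t1, on 22 and 38 calls.

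The difference in lowest count was addressed in 2 ways. With every methylated count of 3 or fewer set to 0, the overall level was 0.226%, 0.281% and 0.189% in the first trio and 0.167%, 0.128% and 0.125% in the last. The trios still did not overlap (difference -0.0922 percentage points, exact permutation p = 0.1). This treats a gene model's count as a unit. If counts are sums over positions, larger counts can also contain 3s, and how the deposited counts were summed is not given in the sources used here. A second treatment, chosen after the data were seen, removed the largest part of each count that can be made of 3s, leaving 0 or at least 4, wherever the lowest count was 3 (11.S2, 25.S11, 27.S18 and 52.S5). It is an extreme case, since it turns 6 and 9 into 0, and it can only lower these 4 libraries, leaving 54.S14 and 55.S21 as they are. The overall levels were then 0.102%, 0.110% and 0.0827% in the first trio and 0.0874% in 52.S5, below the unaltered 0.129% of 54.S14 and of 55.S21. The difference turned to 0.0169 percentage points (exact permutation p = 0.3). The lower level of 54.S14 and 55.S21 was thus present under the milder treatment and absent under the extreme one. In 52.S5, which shares the lowest count of the first trio, the overall level was 0.214% beside the first trio's mean of 0.274%, a comparison with 1 library on one side.

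Depth and the choice of gene models also changed the picture. With at least 50 calls in all 6 libraries, 307 gene models remained and the trios overlapped, at 0.148%, 0.217% and 0.120% in the first and 0.131%, 0.127% and 0.104% in the last (exact permutation p = 0.3). When each library was read over all gene models it covered itself, from 6847 in 55.S21 to 13460 in 52.S5, the level was 0.315%, 0.319% and 0.274% in the first trio. It was 0.304% in 52.S5, above 27.S18, and 0.124% and 0.102% in 54.S14 and 55.S21 (exact permutation p = 0.2). Library 52.S5 thus lay below the first trio or within it depending on the gene models taken, whereas 54.S14 and 55.S21 were below the other 4 libraries over the 901 gene models and over those each library covered. With at least 50 calls, 54.S14 was above 27.S18.

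**Figure D3:**
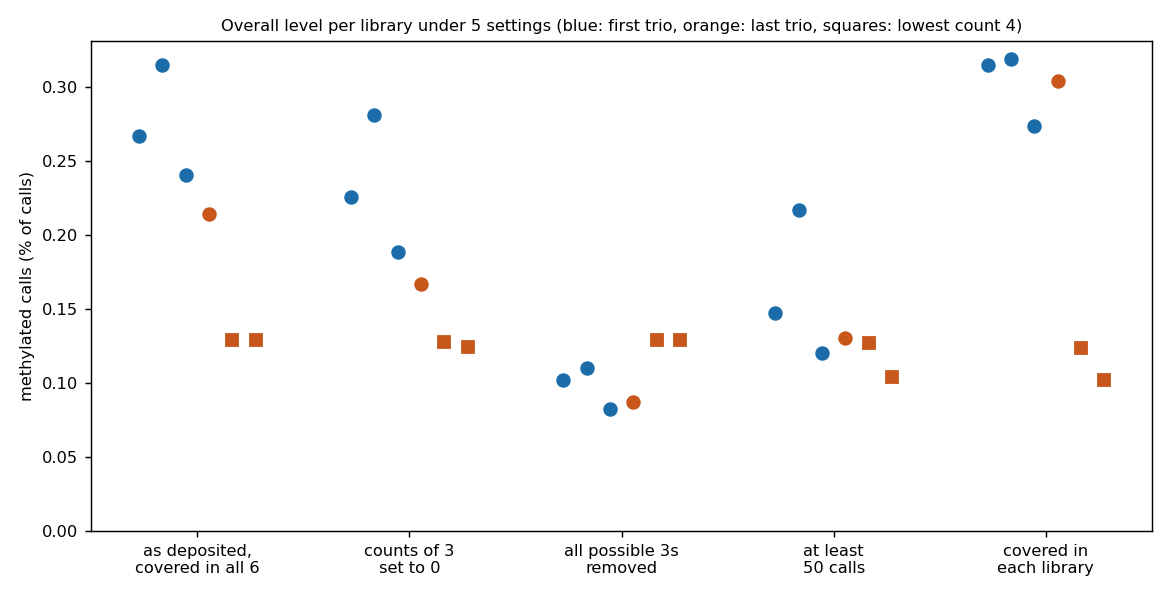
Overall level (methylated calls, % of calls) of each library under 5 settings, with the first trio in blue, the last in orange and squares for a lowest count of 4. The trios are apart as deposited and with counts of 3 set to 0, and overlap with all possible 3s removed, with at least 50 calls, and when each library is read over its own covered gene models.

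The 901 gene models were also split by their mean depth over the 6 libraries. Among the 476 gene models with 30 to under 100 calls, the share with methylated calls was 7.14%, 8.61% and 5.04% in the first trio and 4.83%, 1.05% and 1.89% in the last. The trios did not overlap there (two-sided exact permutation p = 0.1). Among the 300 gene models with 100 calls or more they overlapped, at 6.67%, 10.7% and 5.67% against 8.67%, 4.67% and 2.67% (exact permutation p = 0.4). In the 125 gene models with fewer than 30 calls, at most 7 were methylated in any library. The overall level was lower in the last trio by mean in each class, by -0.474 percentage points under 30 calls (overlapping, exact permutation p = 0.2), -0.330 in the middle class and -0.0414 at 100 calls or more. In the latter 2 classes the levels did not overlap (exact permutation p = 0.1 in both). At 100 calls or more they were 0.141%, 0.205% and 0.126% in the first trio and 0.125%, 0.120% and 0.104% in the last, so 27.S18 and 52.S5 were nearly equal.

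Few gene models were methylated in several libraries. Of the 901, 748 (83.0%) had no methylated call in any of the 6 libraries and 82 had methylated calls in 1 library only. The 153 with any methylated call comprised 77 that were methylated only in first trio libraries, 27 only in last trio libraries and 49 in both. Methylated calls in at least 2 libraries of the first trio and none of the last were found in 20 gene models, and the reverse in 2. Libraries 54.S14 and 55.S21 had few methylated gene models to share, 21 and 17 of the 901. Whether the libraries' own totals alone would give the numbers above was not tested. In the 9 libraries outside the trios, 17 of the 20 were methylated at least once, 17 of them in salinity libraries and 8 in controls, so most were not seen in the first trio alone. Of the 748 with no methylated call in either trio, 75 were methylated in at least 1 of those 9 libraries.

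**Figure D4:**
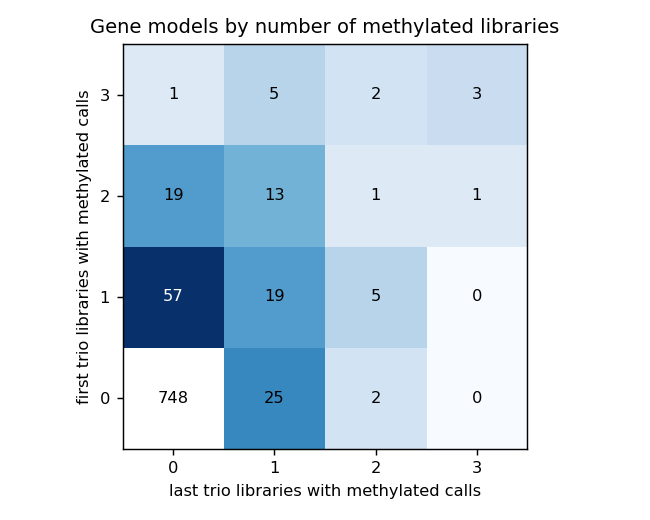
Number of the 901 covered gene models by how many first trio libraries (vertical) and last trio libraries (horizontal) had methylated calls, shaded on a square-root scale with the 748 that had none left white. The column of gene models with no methylated last trio library holds 77 methylated ones, and the row with no methylated first trio library holds 27.

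Part of the methylated gene models of a library were found again in the others, and the shares varied widely. Between 26.9% and 50.9% (median 36.7%) of a first trio library's methylated gene models were also methylated in another first trio library. Of a last trio library's methylated gene models, 10.7% to 47.1% (median 36.7%) recurred in another last trio library and 32.1% to 61.9% (median 46.4%) in a first trio library. Of a first trio library's, 12.8% to 42.6% (median 16.7%) recurred in a last trio library. The difference between these shares was not tested. The lists differ in length, from 17 to 78 gene models, which limits these shares. Across the 901 gene models, the Pearson r of the levels of 2 libraries was 0.334 to 0.530 within the first trio, 0.222 to 0.454 within the last and 0.198 to 0.417 between them. These are descriptions over gene models, most of which are at 0 in both libraries, and gene models are not independent replicates.

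A set of recurrently methylated gene models was chosen without the trios, as those with methylated calls in at least 50% of the covering libraries among the other 9 (at least 5 covering). Of these, 26 were covered in all 6 trio libraries, and 25 of the 26 had methylated calls in at least 1 of them. Methylated calls were found in 15, 15 and 11 of the 26 in 11.S2, 25.S11 and 27.S18, and in 15, 10 and 6 in 52.S5, 54.S14 and 55.S21. The mean level over the 26 was 5.13%, 5.40% and 3.99% in the first trio and 3.73%, 2.76% and 1.90% in the last. All last libraries were below all first ones, at 4.84% ± 0.746 against 2.80% ± 0.915 (SD, n = 3 each; difference -2.04 percentage points, two-sided exact permutation p = 0.1, adjusted 0.2). The lowest first library, 27.S18 at 3.99%, was close to 52.S5 at 3.73%. A pair of the 26, Dapma7bEVm028764t1 and Dapma7bEVm028765t1, was picked out after its values were seen. Both had the same calls and methylated counts in all 6 libraries, 4 of 17 (23.5%) in 27.S18 and none methylated elsewhere. They may be 1 signal counted more than once, which raises the mean of 27.S18. The trios with this pair counted once were not tested. Without 55.S21 the covered gene models were redrawn to 1113. Over the recurrent ones among them the trios overlapped, with a difference of -1.36. Over the 26 themselves the trios stayed apart without that library. The gene models did not all differ in the same direction. Of the 26, 14 had the lower and 11 the higher mean level in the last trio and 1 was at 0 in all 6. Their median difference was -0.0691 percentage points, nearer to 0 than the median of -0.763 over the 153 covered gene models with any methylated call. Over all 901 the median was 0, because 748 had no methylated call. Among them, 7 were at 0 in all last libraries and methylated in the first, and 2 were the reverse. Most of the 7, and both of the 2, had methylated calls in only 1 of the 6 libraries. These numbers count gene models with the same methylated counts separately, among them the pair above, which is part of the 7. With at least 20 calls required, the 21 remaining recurrent gene models gave overlapping trios, which differed by -0.719 percentage points on average (exact permutation p = 0.6).

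**Figure D5:**
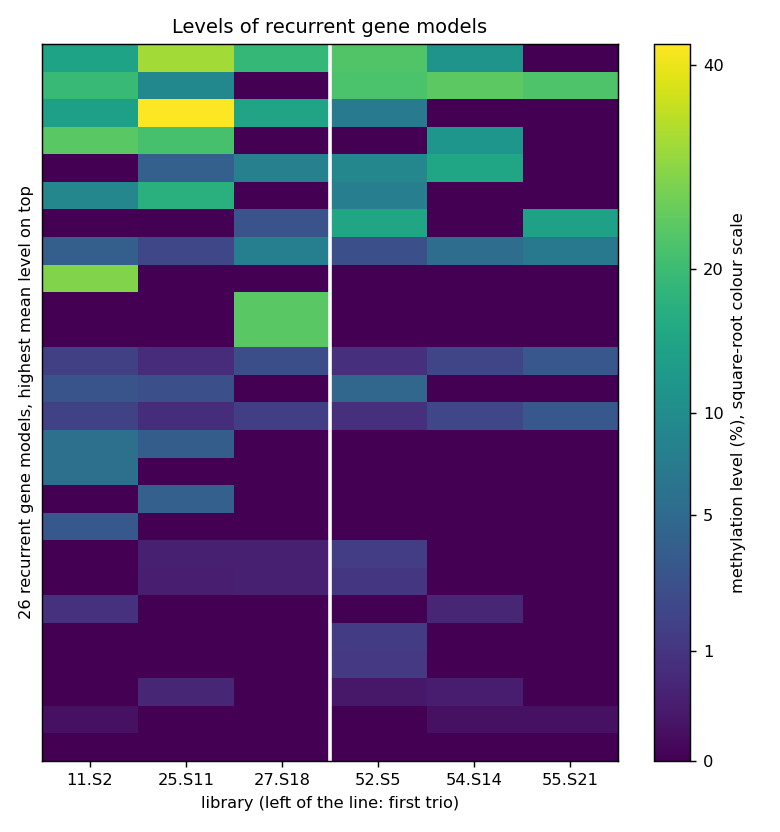
Methylation level (%, square-root colour scale) of the 26 recurrent gene models, 1 per line, in the 6 libraries. The upper lines reach over 20% in libraries of both trios, and the count of methylated gene models per library is 15, 15 and 11 left of the line and 15, 10 and 6 right of it.

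The recurrent set held a different share of the methylated calls in 54.S14 and 55.S21, where the lowest recurring count is 4. The 26 gene models carried 34.3%, 36.4% and 35.8% of the methylated calls in the first trio and 35.1% in 52.S5, but 57.4% in 54.S14 and 66.1% in 55.S21. Dapma7bEVm022692t1, Dapma7bEVm015243t1 and Dapma7bEVm028953t1 may be 1 methylated stretch counted several times. Each held 30 of the 115 methylated calls of the recurrent set in 55.S21 and 19 of the 116 in 54.S14. In the first trio and 52.S5 each held 8 to 19, of 95 to 212. Dapma7bEVm018392t1 held 83 of the 212 in 25.S11, 21 of the 105 in 52.S5 and 28 of the 116 in 54.S14, on 9932 to 16790 calls. It held none in the other libraries, where it had 56 to 136 calls. The shares without such repeats or without Dapma7bEVm018392t1 were not tested. Over the 875 other covered gene models, methylated calls were found in 42, 63 and 36 gene models of the first trio and 41 of 52.S5, against 11 in each of 54.S14 and 55.S21. Their overall level was 0.196%, 0.238% and 0.178% in the first trio, 0.173% in 52.S5, and 0.0670% and 0.050% in 54.S14 and 55.S21. Over these 875 gene models the lowest values were those of the 2 libraries where counts of 3 were nearly missing. The mean level over the 26 recurrent gene models was also lower in the last trio. It differed by -42.2% of the first trio's mean, beside -51.1% for the mean level per gene model over all covered gene models. The -42.5% of the overall level comes from pooled calls, so it is not a like measure. The trios were not tested on the pooled calls of the 26. The part of the lowest count in these differences was not tested beyond the settings given.

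Single gene models were then compared between the trios with a quasi-binomial logistic regression. It called 0 of the 901 (0%) at a threshold of 0.05 after Benjamini-Hochberg adjustment, and every adjusted p was 1. Before adjustment 17 had p under 0.05, and 13 of these (1.44% of those tested) had the lower and 4 (0.444%) the higher mean level in the last trio. The 748 gene models with no methylated call could not reach such a p. Of the 153 with one, the 13 and 4 were 8.50% and 2.61%. Adjusted over these 153 alone, the regression called 0, with a smallest adjusted p of 0.363. Limma on logit levels also called 0 of the 901, with 41 at an unadjusted p under 0.05. EdgeR's quasi-likelihood test took only the 153 gene models with a methylated call. It called 0 of them and had 0 at an unadjusted p under 0.05. Of limma's 41, 22 had no methylated call in any of the 6 libraries, so that their effect came from the 0.5 added to counts of different depth. The 19 others were split into 11 with the lower and 8 with the higher level in the last trio. Among the 153 gene models with any methylated call, 103 had the lower and 50 the higher mean in the last trio.

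The levels of the trios did not overlap in 4 gene models, which is 0.333% of the 901 for lower levels in the last trio and 0.111% for higher ones. They are named after their values were seen, apart from the first, which also had one of the 2 smallest p among lower means. In Dapma7bEVm006996t1, 7 of 83, 3 of 54 and 6 of 44 calls were methylated in 11.S2, 25.S11 and 27.S18, and 0 of 71, 42 and 76 in 52.S5, 54.S14 and 55.S21. Every first library was methylated and no last one, so the mean level was 9.21% ± 4.10 (SD, n = 3) against 0 (exact permutation p = 0.1; regression adjusted p = 1). It was methylated in 1 of the 9 other libraries, a salinity library.

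Dapma7bEVm029048t1 and Dapma7bEVm630241t1 had the same methylated counts in every library, 9, 17 and 8 in the first trio and 3, 0 and 0 in the last, and may share reads. In Dapma7bEVm029048t1 the levels were 40.9%, 44.7% and 25.0% in the first trio, and in the last 3 of 30 calls were methylated in 52.S5 and none in 54.S14 and 55.S21. In the opposite direction, Dapma7bEVm014472t1 had 5 of 26, 5 of 54 and 0 of 31 calls methylated in the first trio and 9 of 41, 5 of 21 and 6 of 27 in the last. Its mean level was 9.50% ± 9.62 against 22.7% ± 1.0 (SD, n = 3 each; exact permutation p = 0.1; regression adjusted p = 1). It belongs to the recurrent set and was methylated in 7 of the 9 other libraries, at a mean of 16.0%, so its mean was below that value in the first trio and above it in the last.

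The other gene models with the smallest p had methylated calls in 2 or 3 libraries. The second among lower means, Dapma7bEVm018392t1, had 83 of 16790 calls methylated in 25.S11 and none of 63 and 56 in 11.S2 and 27.S18. In the last trio it had 21 of 12581, 28 of 9932 and 0 of 136. Its depth thus differed by more than the levels did, and the mean of the levels differed by only -0.0152 percentage points, while pooled calls gave 0.491% and 0.216%. Without 25.S11 the difference turned to 0.150 percentage points. Among higher means, Dapma7bEVm006515t1 had no methylated call in the first trio and 7 of 43, 0 of 20 and 5 of 24 in the last. Dapma7bEVm004907t1 had none in the first trio, on 35, 27 and 13 calls, and 5 of 37, 5 of 19 and 0 of 10 in the last. Their mean levels in the last trio were 12.4% ± 11.0 and 13.3% ± 13.2 (SD, n = 3 each), with adjusted p = 1 in the regression for both.

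Methylated calls in all 6 libraries were found in 3 gene models, and the trios overlapped in each. Dapma7bEVm015243t1 had 13 of 851, 10 of 1417 and 19 of 772 calls methylated in the first trio and 8 of 1041, 19 of 1017 and 30 of 961 in the last. Its mean level was 1.56% ± 0.878 and 1.92% ± 1.18 (SD, n = 3 each; exact permutation p = 0.7). Dapma7bEVm022692t1 had the same methylated counts on fewer calls, 240 to 514 per library, and levels of 4.57% ± 3.05 and 4.97% ± 2.25 (exact permutation p = 0.9 over 3 libraries each). Dapma7bEVm028953t1 differed from both in 1 methylated count only, 11 instead of 19 in 27.S18, with mean levels of 1.26% ± 0.475 and 1.95% ± 1.18 (SD, n = 3 each; exact permutation p = 0.4). The 3 may therefore be 1 methylated stretch counted several times. In all 3 the levels of 54.S14 and 55.S21 were above those of 25.S11 and 52.S5, against the order of the overall levels. Of the 71 gene models methylated in at least 2 libraries, 24 in 11 groups had the same methylated counts as another in all 6.

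A further recurrent gene model, the one with the highest mean level of the 26 over the 6 libraries, was picked after its values were seen. Dapma7bEVm028907t1 had 6 of 42, 22 of 70 and 10 of 53 calls methylated in the first trio and 9 of 40, 5 of 44 and 0 of 44 in the last. Libraries 52.S5 and 54.S14 were within or near the range of the first trio, and 55.S21 was at 0. Its mean level was 21.5% ± 8.88 and 11.3% ± 11.3 (SD, n = 3 each; exact permutation p = 0.4), and 14.1% in the 9 other libraries.

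Both trios can be placed beside the other libraries over the 810 gene models with at least 10 calls in all 15. There the overall level was 0.292% ± 0.0204 in the first trio, 0.171% ± 0.0475 in the last and 0.220% ± 0.0694 in the controls (SD, n = 3 each). In the 6 other salinity libraries it was 0.235% ± 0.0212 (SD, n = 6). The first trio, at 0.272% to 0.312%, was above all 9 other libraries, which reached at most 0.264%. This order depended on the gene models taken, since over the gene models each library covered itself the first trio (0.274% to 0.319%) was below 2 controls (0.349% and 0.361%) and 3 other salinity libraries (28.S3, 36.S12 and 48.S13, 0.348% to 0.375%). Over the 810 gene models, 52.S5 of the last trio was at 0.226%, within the range of the other salinity libraries (0.209% to 0.261%), and 54.S14 and 55.S21 were at 0.139% and 0.148%. Close to these 2 was 1 control library, titled 9.S17, at 0.140%, which also has a lowest count of 4. The fourth library with that lowest count, 51.S20, was at 0.248%. Over the gene models each covered itself, all 4 libraries with a lowest count of 4 (0.102% to 0.187%) were below the 11 with a lowest count of 3 (0.274% or more).

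The number of gene models listed did not separate the trios. It was 13769, 9501 and 10523 in the first trio and 14818, 10918 and 8053 in the last, with means of 11264 ± 2228 and 11263 ± 3396 (SD, n = 3 each; two-sided exact permutation p = 1). Total calls ranged from 1341605 to 2155553 in the first trio and from 1250901 to 2311567 in the last. Of the 24871 gene models listed in at least 1 of the 6 libraries, 206 were listed in all 3 first and no last libraries. The reverse, all 3 last and no first libraries, was found for 1. Whether listing patterns differed between the trios was not tested. The most common pattern was listing in 52.S5 alone (3176 gene models), followed by 11.S2 with 52.S5 (3124), the 2 libraries with the lowest S numbers. The labels do not tie libraries to cultures or animals, so each p-value reflects variation among the 6 libraries, whose technical share is unknown.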

How the data were processed

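Per the labels' protocols, MspI fragments of genomic DNA received methylated adapters before bisulfite conversion. The submitters' processing notes name Trim Galore 0.4.4, FastQC and Bismark 0.18.1. Genome build, cytosine context, the rule for calling methylation and the summing into gene models are not stated there. For every library the authors deposited a table of raw counts of calls (N) and of methylated calls (X) per gene model, per the file headers. The methylated values missed whole numbers slightly, were treated as estimated counts as the authors deposited them, and were rounded. Tables were joined by identifier. None of the 25092 identifiers was found in the RefSeq gene table (0 matches among 28335 genes).

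Trio means were compared by two-sided exact permutation over 20 splits. The 90% interval runs from the smallest to the largest difference between single libraries of the trios. Gene models were tested with quasi-binomial regression (F test, Pearson dispersion floored at 1, Benjamini-Hochberg over 901), tested on simulated data. Alternatives used edgeR 4.0.16, limma 3.58.1 on logit levels (pseudocount 0.5), Fisher's exact test, a replicate block, other coverage minimums and leaving out each library. The lowest recurring methylated count is the lowest value making up at least 5% of a library's methylated gene models. Gene models named are the 2 with the smallest p in each direction and those with methylated calls in all 6 libraries, and others are marked in the text. The trios, measures and tests were chosen with earlier results of these data known.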

Additional observations from a re-analysis of the deposited data

How the results depend on the processing

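The removal of all possible 3s, the 4 libraries with a lowest count of 3, 1 gene model per shared methylated counts, the 810 common gene models and the use of every listed gene model are settings picked after seeing the data. Both level differences that turned did so with all possible 3s removed, namely the overall level, from -0.117 to 0.0169 percentage points, and the share at 10% or more, from -0.777 to 0.222 (exact permutation p = 0.1). The other differences in level or share stayed below 0 under every setting tried, but the mean level difference shrank from -0.291 to -0.00257 with the 3s removed and to -0.0907 with at least 50 calls. The trios overlapped in mean level at coverage minimums of 5, 20 and 50, over each library's own covered or all listed gene models, with the 3s removed and with 1 gene model per shared methylated counts. The overall difference was -0.0410 with at least 50 calls and -0.173 without the 50 most-called gene models. The recurrent difference was -0.388 with at least 50 calls, -0.507 with the 3s removed and -1.06 over gene models recurrent in at least 80% of the other 9 libraries, with overlapping trios. Choosing recurrence in at least 4 of the 6 trio libraries gave -6.02, but that choice uses the compared libraries. The share at 50% or more was 0 in every library and gave no value. The causes were not tested beyond what the settings themselves change.

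With each library left out in turn, the covered gene models were redrawn, so the level and share values do not show the removed library alone. The difference in overall level then lay between -0.140 and -0.0914, with the trios apart each time. The mean level difference ran from -0.363 to -0.225, with the trios overlapping without 25.S11 or 55.S21. The share with methylated calls differed by -4.65 to -2.47 and the share at 10% or more by -1.02 to -0.569. The recurrent difference ran from -2.47 to -1.36. The last of these values was found without 55.S21, with overlapping trios. For the listed gene models the difference of -1.33 ranged from -1779 to 1604 and was above 0 without 11.S2, 54.S14 or 55.S21. In single gene models the difference ran from -0.0976 to 0.150 for Dapma7bEVm018392t1, from -0.919 to 2.07 for Dapma7bEVm022692t1 and from -0.246 to 0.930 for Dapma7bEVm015243t1.

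The count of gene models called ran from 0 to 0 when libraries were left out, and was 0 under every other setting except Fisher's exact test. That test pools the calls of a trio without regard to the spread among its libraries, and it called 17 (13 lower and 4 higher in the last trio). The smallest adjusted p was 0.0804 with limma, 0.512 with all 15 libraries in the regression and 1 with the bands of S numbers as a replicate block. The labels give no replicate numbers. Deviations of same-band libraries correlated at -0.0260, -0.0694 and 0.263 across gene models, so the bands were not taken as pairs. With them as a block, the exact permutation by sign flips gave p = 0.25 for the overall level, the smallest the 8 flips allow, and 0 calls.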
